A study of Mus musculus with 16 samples.

Results

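Open chromatin was described at 10 dendritic cell genes, the transcription factor genes Tcf4, Spib, Irf4, Batf3, Id2 and Zbtb46 and the surface receptor genes Ccr9, Siglech, Clec9a and Itgax. ATAC-seq, which marks open DNA by insertion of adapters with the Tn5 transposase, had been run on 16 samples of mouse haematopoietic progenitors, labelled as multipotent progenitors, at 21 days of age. Set 1, the samples whose titles begin with P21, held wildtype mice, mice with Flt3-ITD (a duplicated stretch within the Flt3 gene that leaves the receptor active), mice labelled Runx1-het (heterozygous for Runx1, which encodes a blood cell transcription factor) and mice with both, Flt3-ITD/Runx1-het. Set 2, the samples whose titles carry HPC, held wildtype, mice with the fusion gene NUP98-HOXD13 known from leukaemia, mice with Flt3-ITD and mice with both, NUP98-HOXD13/Flt3-ITD. Each of the 8 groups had 2 samples but 1 deposited peak list, which both samples name. No value therefore has a replicate error, no test between genotypes was possible, and read depth was unknown. The labels do not say how the sets differ, how many copies of Flt3-ITD the mice carried, or which promoter drives the fusion gene.

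Overlapping peaks of the 8 lists (1 bp or more) were joined into 122020 union regions, and the members of the description were the 169 regions that touch the span of a member gene or the 50 kb on either side of it. The limit of the window was not a gap in the data. The outermost region inside, 49.14 kb from the span of Ccr9, and the nearest region outside, 50.26 kb from the span of Irf4, were both present in all 8 lists, with highest −log10 p of 570.4 and 131.4. A region is called present in a list that holds a peak in it, and absent otherwise. Absence means only that the list holds no peak there. Fold enrichment and −log10 p below are the authors' values for the best peak of a region, and a rank is the place of that peak in its own list by −log10 p. Lists differed in length, so no change is read from a rank or from −log10 p between lists.

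Dendritic cells sense pathogens and present antigen to T cells. Plasmacytoid dendritic cells release type I interferon and depend on the E protein encoded by Tcf4, while conventional dendritic cells take up and present antigen and are marked by the zinc finger factor encoded by Zbtb46. Both arise from progenitors that carry Flt3, and signalling by the Flt3 ligand is needed for their development. Id2 binds and inhibits E proteins, and so opposes the factor encoded by Tcf4.

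Promoter sequences were matched for 9 members in the RefSeq table of build GRCm38.p6, and those of 3 surface receptor genes are shown because their regions differed in how they followed the genotype. The Ccr9 promoter region was absent from all 4 lists with Flt3-ITD, that of Siglech was present in all 8 lists, and that of Itgax was absent from 1. The 250 bases before the start site are given 5′ to 3′ on the strand of the gene, with the motif matches described further on in capitals. They are chr9:123766961-123767210 (+) for Ccr9, chr7:55767934-55768183 (+) for Siglech and chr7:128129300-128129549 (+) for Itgax.
Ccr9: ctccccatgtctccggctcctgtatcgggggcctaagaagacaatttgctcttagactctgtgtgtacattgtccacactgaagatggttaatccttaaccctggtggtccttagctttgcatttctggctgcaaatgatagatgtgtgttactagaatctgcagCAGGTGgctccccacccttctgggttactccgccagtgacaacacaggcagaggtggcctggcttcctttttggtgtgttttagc
Siglech: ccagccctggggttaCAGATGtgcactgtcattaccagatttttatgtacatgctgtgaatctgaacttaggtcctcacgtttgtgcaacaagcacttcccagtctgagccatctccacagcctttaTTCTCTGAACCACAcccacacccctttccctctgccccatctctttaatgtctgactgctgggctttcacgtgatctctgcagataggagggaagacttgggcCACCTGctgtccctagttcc
Itgax: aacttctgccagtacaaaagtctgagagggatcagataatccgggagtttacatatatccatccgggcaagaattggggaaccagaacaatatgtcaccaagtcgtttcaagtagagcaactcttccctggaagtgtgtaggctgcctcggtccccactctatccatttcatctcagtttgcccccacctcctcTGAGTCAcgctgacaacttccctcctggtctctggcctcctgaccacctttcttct

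The windows of the dendritic cell genes held many open regions in progenitors of every genotype. Of the 169 member regions, 64 (37.9%) were present in all 8 lists, against 34.1% of all union regions. Those present in 1 list only numbered 27 (16%), against 18.9% of all union regions. The lists held 119 to 127 of the member regions in set 1 (70.4% to 75.1%, against 59.1% to 67.8% of all union regions). In set 2 the number was 127 for wild type (75.1%, against 72.4%). It was 115 for NUP98-HOXD13 (68.0%, against 63.9%) and 113 with both mutations (66.9%, against 61.7%). For Flt3-ITD it was 78 (46.2%, against 46.9%), so this low number was near the share of the list over all union regions. The set-2 Flt3-ITD list was also the shortest over the genome, with 84080 peaks where the other lists had 113325 to 138514, and its median −log10 p was 15.8 against 24.7 to 38.5. Its part in the results below was not tested. Regions present in the other 7 lists and absent from this list alone numbered 18 (10.7%), against 5.6% of all union regions. Of the member regions present in a list, 36.2% to 42.3% had a best peak in the top 25% of the list, against 33.1% to 36.7% for all union regions.

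**Figure D1:**
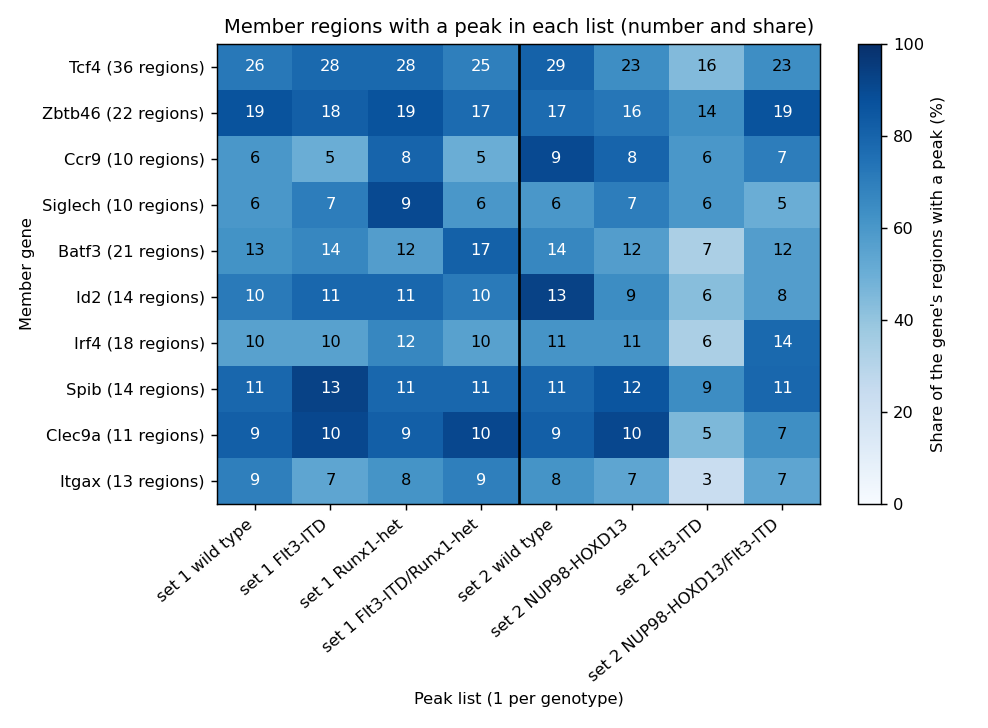
Number of open regions with a peak in each of the 8 lists (columns) in the window of each member gene (rows, with the total over the lists in brackets), with the share as colour. Set-2 Flt3-ITD has the lowest number in every row but those of Ccr9 and Siglech, with 3 of 13 regions at Itgax.

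Tcf4, with a span of 344.5 kb, had the most regions (36), followed by Zbtb46 (22), Batf3 (21), Irf4 (18), Spib (14), Id2 (14), Itgax (13), Clec9a (11), Ccr9 (10) and Siglech (10). At Tcf4, 32 of the regions lay in the span of the gene and its window held no other protein-coding gene. Spib was the opposite case, with 2 regions in its span of 6.1 kb and 9 in the spans of neighbours such as Pold1 and Mybpc2. A region in a window is therefore placed by position, and which gene it acts on is not known. The table used gives gene spans and no exons, so exonic, intronic and untranslated positions were not told apart.

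The question of each comparison was which open regions a mutation adds to or removes from the wild-type set. A region gained was present in the mutant list and absent from wild type of the same set, and a region lost was the reverse. In set 1, Flt3-ITD gained 18 member regions (10.7%, against 13.6% of all union regions) and lost 14 (8.28%, against 7.35%). Runx1-het gained 21 (12.4%, against 15.0%) and lost 13 (7.69%, against 6.31%). Flt3-ITD/Runx1-het gained 20 (11.8%, against 15.6%) and lost 19 (11.2%, against 7.94%). All 3 shares gained at the members were thus below those of the genome and all 3 shares lost above. The genome's shares lay inside the 95% Wilson intervals of the members' shares, which cover counting error only. These comparisons share the set-1 wild-type list.

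In set 2, NUP98-HOXD13 gained 12 member regions (7.1%, against 8.85%) and lost 24 (14.2%, against 17.3%). Flt3-ITD gained 3 (1.78%, against 3.29%) and lost 52 (30.8%, against 28.7%). NUP98-HOXD13/Flt3-ITD gained 10 (5.92%, against 8.09%) and lost 24 (14.2%, against 18.8%). These comparisons share the set-2 wild-type list. With the 84080 highest peaks of every list, the losses of NUP98-HOXD13 were 9.63% (11.7% of all union regions), the gains of set-2 Flt3-ITD were 6.67% (7.54% of all union regions) and its losses 23.7% (18.8%), and the gains of Runx1-het were 8.15% (9.69%).

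Lists of equal genotype differed at the members as well. Set-2 wild type held 16 member regions that set-1 wild type lacked (9.47%, against 18.9%) and lacked 8 (4.73%, against 5.63%). With equal numbers of peaks these shares were 5.19% (11.0% of all) and 10.4% (8.27% of all). Losses then outnumbered gains at the members, while over all union regions gains still outnumbered losses. Set-2 Flt3-ITD held 3 that set-1 Flt3-ITD lacked (1.78%, against 4.4%) and lacked 48 (28.4%, against 22.9%). Whatever separates the sets enters these pairs too.

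**Figure D2:**
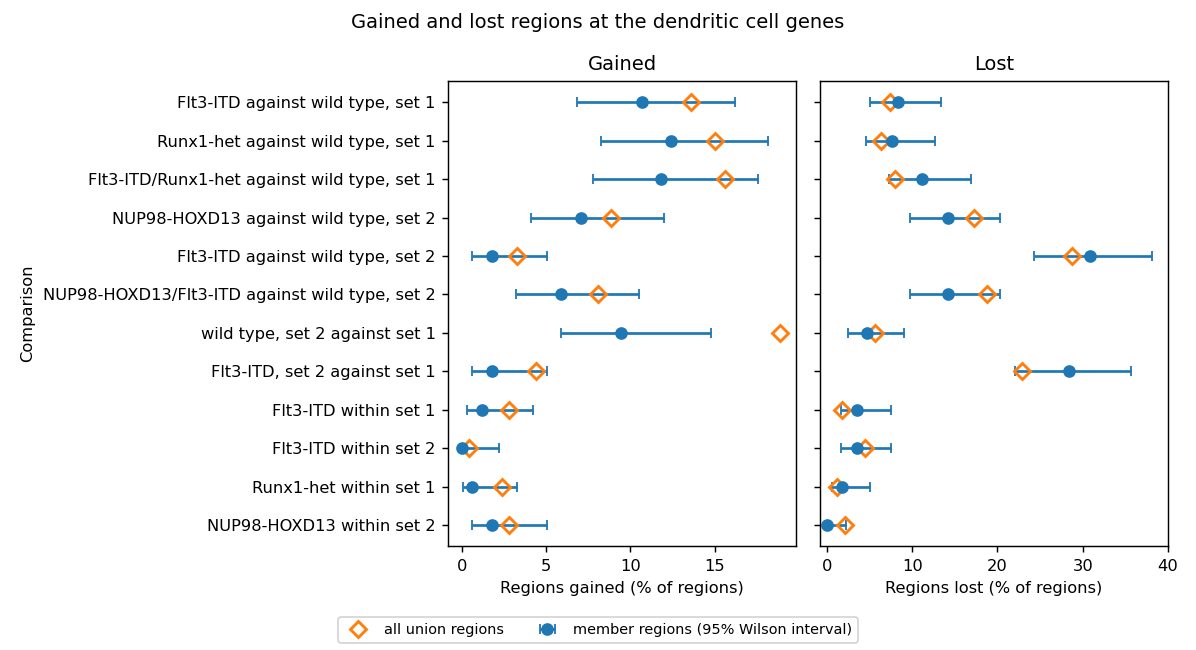
Share of the 169 member regions (circles, with 95% Wilson intervals) and of all 122020 union regions (diamonds) gained (left) or lost (right) in each comparison, in percent of regions. The members lie near the genome in most rows. The widest gap is in the regions gained between the wild-type lists, 9.47% against 18.9%.

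A gained region was called a strong gain where its best peak was in the top 25% of the mutant list, and a lost region a strong loss where its best peak was in the top 25% of wild type. Strong gains at the members numbered 0 in each of the 6 mutants. Over all union regions their shares in set 1 were 0.111% in Flt3-ITD, 0.068% in Runx1-het and 0.155% in Flt3-ITD/Runx1-het. In set 2 they were 0.0787% in NUP98-HOXD13, 0.0156% in Flt3-ITD and 0.0779% with both. Strong losses at the members numbered 2 in set-2 Flt3-ITD (1.18%, against 0.899% of all) and 0 in the other 5 mutants. Over all union regions the strong losses of those 5 were 0.00983% in set-1 Flt3-ITD, 0.00328% in Runx1-het, 0.0262% in Flt3-ITD/Runx1-het, 0.275% in NUP98-HOXD13 and 0.414% with both set-2 mutations. Between the wild types the members had 0 strong gains and 0 strong losses in set 2 against set 1 (0.262% and 0.00082% of all), and between the Flt3-ITD lists 0 and 2 (0.0123% and 0.589%).

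The strong losses of Flt3-ITD in set 2 were a region in the span of Zbtb46 (chromosome 2, 181392459 to 181393164) and a region in the span of Itgad beyond Itgax (chromosome 7, 128179923 to 128181051). The Zbtb46 region had −log10 p of 70.7 in set-1 wild type, 87.0 in Flt3-ITD, 82.0 in Runx1-het, 86.6 in Flt3-ITD/Runx1-het, 113.6 in set-2 wild type, 74.6 in NUP98-HOXD13 and 71.8 with both set-2 mutations. The Itgad region, also the strongest in the Itgax window in each of the 7 lists that held it, had 140.1, 156.2, 135.4, 157.9, 149.5, 108.1 and 119.3 in the same order. Both were thus absent from set-2 Flt3-ITD alone and present in set-1 Flt3-ITD. With equal numbers of peaks the strong losses were 0, since the top 25% of a shortened wild-type list reaches less far down.

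Regions that followed a mutation within a set were rare at the members. Such a region was present in both lists with the mutation and absent from both without it, or the reverse. Flt3-ITD in set 1 had 2 gained (1.18%, against 2.79%) and 6 lost (3.55%, against 1.78%). In set 2 it had 0 gained (0%, against 0.452%) and 6 lost (3.55%, against 4.5%), and the lost share was 1.48% (2.75% of all) with equal numbers of peaks. Runx1-het had 1 gained (0.592%, against 2.38%) and 3 lost (1.78%, against 1.15%). NUP98-HOXD13 had 3 gained (1.78%, against 2.8%) and 0 lost (0%, against 2.07%). As a yardstick, the split of the same lists that follows no mutation, wild type and double mutant against the 2 single mutants, gave 3 gained (1.78%, against 2.26%) and 2 lost (1.18%, against 0.997%) in set 1. In set 2 it gave 0 gained (0%, against 0.36%) and 8 lost (4.73%, against 3.48%). In all, 8 member regions in set 1 and 6 in set 2 followed Flt3-ITD, and 5 and 8 followed the split with no mutation. Most of the regions that followed a mutation were weak. Of 21 such cases (a region that follows mutations in both directions or both sets counts for each), 6 were kept with equal numbers of peaks and 20 with a −log10 q of at least 5. Those kept with equal numbers were the regions of Zbtb46, Ccr9 (4.1 kb before the start site) and Itgax lost with Flt3-ITD in set 1, 1 of Id2 lost with Flt3-ITD in set 2, 1 of Clec9a lost with Runx1-het and 1 of Tcf4 gained with NUP98-HOXD13. Other regions followed a mutation only with equal numbers of peaks. Of the 135 member regions left, Flt3-ITD then had 2 gained (1.48%, against 2.64%) and 5 lost (3.7%, against 1.88%) in set 1. In set 2 it had 2 gained (1.48%, against 0.933%) and 2 lost. Runx1-het had 1 gained (0.741%, against 1.49%) and 2 lost (1.48%, against 1.28%). NUP98-HOXD13 had 2 gained (1.48%, against 3.28%) and 1 lost (0.741%, against 2.75%).

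Ccr9, the chemokine receptor that guides plasmacytoid dendritic cells and T cells to the gut, held the 1 member region that divided all 4 lists with Flt3-ITD from all 4 without it. Such regions, absent with Flt3-ITD in both sets, made up 0.592% of the member regions and 0.192% of all union regions (234), and regions present with Flt3-ITD alone 0 of the members and 0.0582% of all. The Ccr9 region (chromosome 9, 123766950 to 123767468) reached from 261 bases before to 257 bases after the start site and covered the promoter shown above. Its −log10 p was 21.4 in set-1 wild type, 13.4 in Runx1-het, 19.5 in set-2 wild type and 9.72 in NUP98-HOXD13. Fold enrichment in the same order was 6.59, 4.68, 5.64 and 4.14. These peaks ranked low in their lists, at the top 64.2% to 76.3%. With equal numbers of peaks the region was present in set-1 wild type alone, so the division rests on peaks near the lower end of the lists, and it was kept with a −log10 q of at least 5. Of 32817 promoter windows in the RefSeq table, 18 (0.0548%) overlapped a region with this division.

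Another region of Ccr9, 4.1 kb before the start site (chromosome 9, 123762819 to 123763328), was absent from both set-1 lists with Flt3-ITD and from the single Flt3-ITD list of set 2. It was present in set-1 wild type (−log10 p 27.2), Runx1-het (25.5), set-2 wild type (31.6), NUP98-HOXD13 (18.4) and the set-2 list with both mutations, where −log10 p was between those of NUP98-HOXD13 and Runx1-het. This pattern was the same with equal numbers of peaks. On the other side of the start site, 2.5 kb inside the gene, a region was absent from set-1 wild type alone, with −log10 p from 6.55 to 41.7 in the other 7 lists. With equal numbers of peaks set-2 wild type and NUP98-HOXD13 lacked it too, so in set 2 it then followed Flt3-ITD. The strong regions near Ccr9 were present in every list. The strongest, 49.5 kb before the start site in the span of Lztfl1, had −log10 p from 65.7 to 570.4. At 12.6 kb before the start site, −log10 p was 187.8 in set-1 wild type, 134.6 in Flt3-ITD, 202.8 in Runx1-het and 153.6 in Flt3-ITD/Runx1-het. In set 2 it was 355.3 in wild type, 194.3 in NUP98-HOXD13, 62.5 in Flt3-ITD and 168.4 in NUP98-HOXD13/Flt3-ITD. In the full lists the division by Flt3-ITD thus concerned the promoter region, and in set 1 also its neighbour, and not the strong regions of the window.

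**Figure D3:**
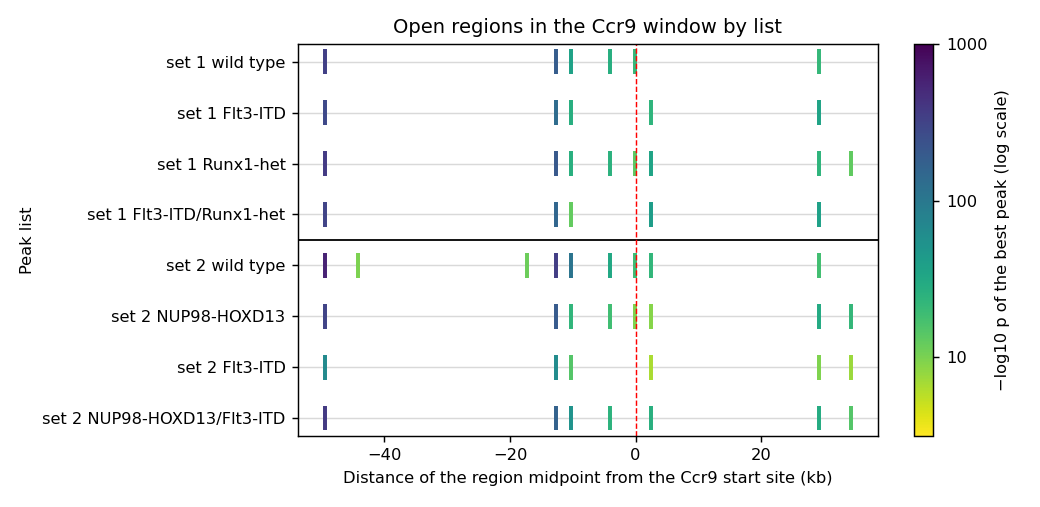
Regions in the Ccr9 window by distance of the midpoint from the start site (dashed line, in kb) for the 8 lists (rows), coloured by −log10 p of the best peak on a log scale. At the dashed line, marks stand in the rows of both wild types, Runx1-het and NUP98-HOXD13 and in no row with Flt3-ITD.

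Siglech encodes a surface receptor by which mouse plasmacytoid dendritic cells are recognised. It had the member regions with the highest −log10 p. The region 25.9 kb beyond the start site (chromosome 7, 55793648 to 55794611), in the span of Tubgcp5, had −log10 p of 560.7 in set-1 wild type, 727.3 in Flt3-ITD, 627.0 in Runx1-het and 623.1 in Flt3-ITD/Runx1-het. The set-2 values were 1008.3 in wild type, 587.4 in NUP98-HOXD13, 142.9 in Flt3-ITD and 498.1 in NUP98-HOXD13/Flt3-ITD. A region 16.5 kb beyond the start site was above it in Runx1-het (634.9) and set-2 Flt3-ITD (163.5). The region at 25.9 kb ranked in the top 0.321% to 1.84% of peaks in the 8 lists, and in every list it was thus among the strongest peaks of the genome. The promoter region of Siglech was present in all 8 lists with −log10 p from 39.2 to 166.6. Regions that followed a mutation here were weak. The region 56.5 kb beyond the start site was present only in set-1 Flt3-ITD (18.7) and in Flt3-ITD/Runx1-het (24.6). The region at 14.5 kb was present only in NUP98-HOXD13 (14.6), the set-2 list with both mutations (7.89) and Runx1-het (19.6). In lists of equal length, Flt3-ITD/Runx1-het alone held the former and NUP98-HOXD13 alone the latter.

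Clec9a encodes a receptor for dead cells on type 1 conventional dendritic cells and their progenitors. Its strongest region, 25.6 kb beyond the start site in the span of Clec1a (chromosome 6, 129434182 to 129434688), was present in every list. Its −log10 p was 447.0 in set-1 wild type, 535.3 in Flt3-ITD, 521.2 in Runx1-het and 482.3 in Flt3-ITD/Runx1-het. In set 2 it was 847.9 in wild type, 401.7 in NUP98-HOXD13, 121.1 in Flt3-ITD and 386.6 in NUP98-HOXD13/Flt3-ITD. It ranked in the top 0.894% to 2.87% of peaks. In set 2, 2 regions followed Flt3-ITD, absent from both lists with it and present in both without it. They lay 43.1 kb and 64.1 kb beyond the start site. The former was present in all 4 lists of set 1 (−log10 p 32.3 to 44.0), in set-2 wild type (62.5) and in NUP98-HOXD13 (12.7), so in set 1 it did not follow Flt3-ITD. The latter was present in NUP98-HOXD13, set-1 Flt3-ITD and both wild types (11.9 to 30.9), and thus absent from both Runx1-het lists too. NUP98-HOXD13 lacked both regions with equal numbers of peaks.

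Itgax encodes the integrin CD11c, carried by most dendritic cells. It had the lowest share of regions in all 8 lists, 1 of 13. That region lay 4.2 kb inside the gene, with −log10 p from 23.0 to 99.5. The promoter region (chromosome 7, 128129224 to 128129828) was absent from set-2 Flt3-ITD. Its −log10 p was 26.1 in set-1 wild type, 64.5 in Flt3-ITD, 34.2 in Runx1-het, 42.2 in Flt3-ITD/Runx1-het, 50.1 in set-2 wild type, 20.9 in NUP98-HOXD13 and 32.7 with both set-2 mutations. Set-1 Flt3-ITD thus had a peak at this promoter and set-2 Flt3-ITD had none. Of all promoter windows, 1.92% overlapped a region absent from set-2 Flt3-ITD alone. A region 52.3 kb beyond the start site in the span of Itgad was absent from both Flt3-ITD lists of set 1 and from set-2 Flt3-ITD, with −log10 p from 10.4 to 22.0 in the other 5 lists. It was present only in set-1 wild type and Runx1-het with equal numbers of peaks. A region in the span of the integrin gene Itgam, 11.9 kb before the start site, was present in the 3 mutants of set 1 (12.8 to 23.6) and in none of the other 5 lists.

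**Figure D4:**
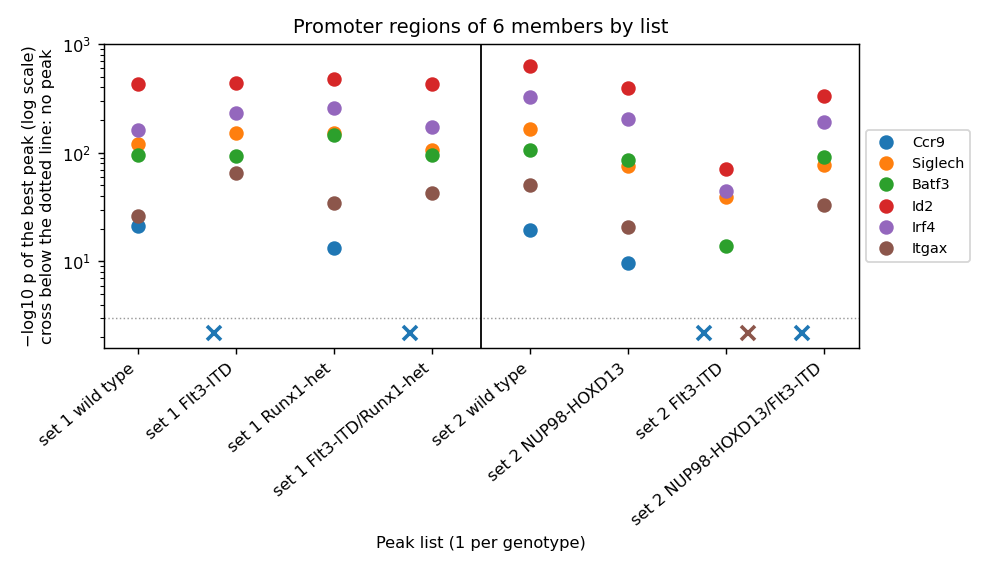
Highest −log10 p (log axis) in the promoter regions of the 6 members that had one, for the 8 lists, 1 point per gene and list; a cross marks a list with no peak there. Id2 is highest in every list, and crosses stand for Ccr9 in the 4 lists with Flt3-ITD and for Itgax in set-2 Flt3-ITD.

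Among the transcription factors, Tcf4, the regulator of plasmacytoid dendritic cells, had 11 of 36 regions in all 8 lists. The region with the highest single value lay within the gene (chromosome 18, 69593109 to 69593808), with −log10 p of 192.2 in set-1 wild type, 201.0 in Flt3-ITD, 197.5 in Runx1-het and 210.5 in Flt3-ITD/Runx1-het. In set 2 it had 301.9 in wild type, 147.7 in NUP98-HOXD13, 64.4 in Flt3-ITD and 198.1 in NUP98-HOXD13/Flt3-ITD. It ranked in the top 6.82% to 10.2% of peaks. A region 0.9 kb from the lower end of the span (chromosome 18, 69343985 to 69344674) was above it in NUP98-HOXD13 (291.0) and in the set-1 double mutant (242.8) and below it in the other 6 lists (56.9 to 274.1). That region ranked in the top 3.78% to 12.0% of peaks. In set 1, 2 of its regions were absent from both lists with Flt3-ITD and present in both without it, 42.6 kb before and 204.0 kb after the lower end of the span. The former was present in set-1 wild type (12.4), Runx1-het (23.5) and set-2 wild type (19.0), and the latter in set-1 wild type (23.8) and Runx1-het (13.5). With equal numbers of peaks the former was present in Runx1-het alone and the latter in wild type alone. A region at 200.5 kb followed Flt3-ITD in set 2 but not in set 1, where Runx1-het lacked it and wild type (25.4), Flt3-ITD (25.6) and the double mutant (11.2) held it. With equal numbers of peaks set-2 wild type lacked this region, which then no longer followed Flt3-ITD in set 2.

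At Tcf4, NUP98-HOXD13 gained 2 regions. The region at 257.1 kb was present in NUP98-HOXD13 (27.1), in the set-2 list with both mutations (22.1) and in set-1 Flt3-ITD (9.26). The region at 265.2 kb was present only in NUP98-HOXD13 (3.61) and with both mutations (8.7). In the reverse direction, regions at 196.1 kb and 317.1 kb were present in all of set 1 and in set-2 wild type and absent from the 3 set-2 mutants. At 196.1 kb −log10 p was 17.3 to 42.8 in the 5 lists, and at 317.1 kb 24.0 to 35.5. With a region at Batf3, 3 of the 169 member regions (1.78%) had this pattern, against 0.598% of all union regions. In lists of equal length, set-2 wild type also lacked the regions at 196.1 kb and at Batf3. Runx1-het lists lacked a region at 164.6 kb that both wild types (11.5 in set 1 and 34.5 in set 2) and set-1 Flt3-ITD (37.5) held. With equal numbers of peaks set-1 wild type lacked that region too. A region at 301.4 kb was absent from set-1 wild type alone, with −log10 p of 52.9 in set-1 Flt3-ITD, 47.6 in Flt3-ITD/Runx1-het and 5.58 in Runx1-het. Runx1-het lacked it too with equal numbers of peaks or a −log10 q of at least 5, so it then followed Flt3-ITD in set 1. Differences at Tcf4 thus went in both directions, and no region of its window divided the lists with Flt3-ITD from those without it in both sets.

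**Figure D5:**
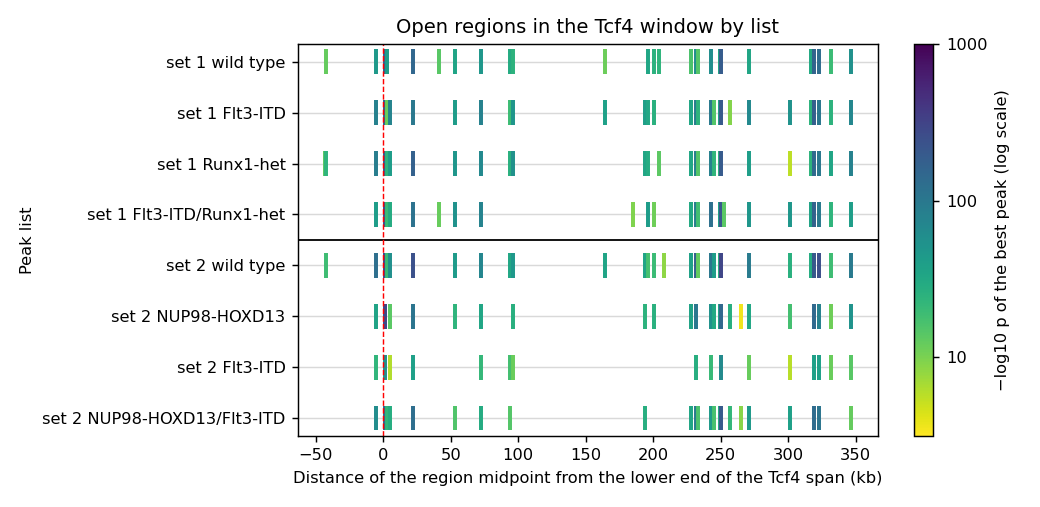
Regions in the Tcf4 window by distance of the midpoint from the lower end of the gene span (dashed line, in kb) for the 8 lists (rows), coloured by −log10 p of the best peak on a log scale. Set-2 Flt3-ITD has the fewest marks, 16 of the 36 regions, and marks near 0.9 kb and 318.9 kb stand in every row.

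Spib encodes an ETS factor of plasmacytoid dendritic cells and B cells. Of its 14 regions, 8 were present in all 8 lists, and the region with the highest single value lay 35.6 kb beyond the start site at Emc10 and Fam71e1, with −log10 p from 107.0 to 636.5. A region in the span of Pold1, 16.8 kb before the start site, was above it in set-1 wild type (310.7 against 303.9), set-1 Flt3-ITD (374.9 against 325.6) and set-2 Flt3-ITD (118.1 against 107.0). The region inside the gene span, 4.1 kb from the start site (chromosome 7, 44527512 to 44528440), was present in every list. Its −log10 p was 156.2 in set-1 wild type, 218.0 in Flt3-ITD, 202.9 in Runx1-het and 147.2 in Flt3-ITD/Runx1-het, and in set 2 267.6 in wild type, 100.2 in NUP98-HOXD13, 47.9 in Flt3-ITD and 210.8 in NUP98-HOXD13/Flt3-ITD. No region in the window followed a mutation within a set (0). The region 41.9 kb beyond the start site was present in both single Flt3-ITD lists only (18.4 in set 1 and 7.26 in set 2), and was the 1 member region gained in Flt3-ITD in both sets (0.592%, against 0.756% of all). Set-2 Flt3-ITD alone held it in lists of equal length.

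Zbtb46 marks conventional dendritic cells and had the highest share of regions in all 8 lists among the transcription factors, 13 of 22, with Spib close behind. The region with the highest single −log10 p in its window (81.0 to 494.5) lay at the neighbours Arfrp1 and Zgpat. It was exceeded in set-1 wild type (318.5) by regions at Dnajc5 (333.9) and Tpd52l2 (330.0), and in set-2 Flt3-ITD by the region at Dnajc5 (90.7). Inside Zbtb46, a region 22.5 kb beyond the start site (chromosome 2, 181401587 to 181402132) was absent from NUP98-HOXD13, from both single Flt3-ITD lists and from Flt3-ITD/Runx1-het. Where present, −log10 p was 40.4 in set-1 wild type, 41.4 in Runx1-het, 85.3 in set-2 wild type and 31.7 in NUP98-HOXD13/Flt3-ITD, and fold enrichment was 11.5, 10.6, 14.8 and 8.17. It was the strongest member region that followed Flt3-ITD in set 1, and its pattern was the same with equal numbers of peaks. In set 2 it followed no single mutation, since the list with both mutations held it. A region next to the upper end of the span (chromosome 2, 181491858 to 181492637) was absent from set-2 Flt3-ITD alone, with −log10 p from 33.1 to 96.9 in the other lists.

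Batf3, a factor required by type 1 conventional dendritic cells, had its strongest region 12.6 kb before the start site (chromosome 1, 191085339 to 191086231). Its −log10 p was 469.7 in set-1 wild type, 525.4 in Flt3-ITD, 457.4 in Runx1-het and 407.9 in Flt3-ITD/Runx1-het, and in set 2 825.0 in wild type, 319.3 in NUP98-HOXD13, 137.6 in Flt3-ITD and 375.2 in NUP98-HOXD13/Flt3-ITD. It ranked in the top 0.967% to 3.14% of peaks. The promoter region was present in all 8 lists (13.9 to 145.5). The region that followed Flt3-ITD in set 1, 40.2 kb beyond the start site, was present in both set-1 lists with Flt3-ITD (12.1 and, with Runx1-het, 22.7). It was also present in set-2 wild type (9.82) and absent from the 3 set-2 mutants. With equal numbers of peaks Flt3-ITD/Runx1-het alone held it. A region 42.7 kb beyond the start site had the pattern described at Tcf4, present in set 1 (26.9 to 33.1) and in set-2 wild type (12.7) and absent from the 3 set-2 mutants.

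Id2, the inhibitor of E proteins, had the promoter region with the highest −log10 p of the members in every list, though not the highest fold enrichment (chromosome 12, 25095827 to 25096773). Its −log10 p was 429.6 in set-1 wild type, 439.8 in Flt3-ITD, 477.5 in Runx1-het and 429.1 in Flt3-ITD/Runx1-het, and in set 2 630.5 in wild type, 396.6 in NUP98-HOXD13, 70.2 in Flt3-ITD and 335.0 in NUP98-HOXD13/Flt3-ITD. A region 23.4 kb before the start site had a higher −log10 p than the promoter in 3 of the 4 lists with Flt3-ITD, the single mutants of set 1 (449.5) and set 2 (128.4) and Flt3-ITD/Runx1-het (516.8). It was lower than the promoter in set-1 wild type (365.6), Runx1-het (419.7), set-2 wild type (517.3), NUP98-HOXD13 (144.4) and the set-2 list with both mutations (160.9). By −log10 p, the order of these 2 peaks within a list thus differed between lists. The promoter was ahead in all 4 lists without Flt3-ITD and in 1 with it. By fold enrichment the region at 23.4 kb was ahead in all 8 lists, with 17.36 to 27.11 against 12.69 to 17.43 for the promoter. The order by −log10 p was noticed in the values and not tested. Regions 22.0 kb and 45.6 kb before the start site followed Flt3-ITD in set 2, absent from both lists with it and present in both without it. In set 1 the former was present in both Runx1-het lists (16.3 and 14.9) and the latter in wild type (10.3) and Flt3-ITD (12.5), so they followed Runx1-het in opposite directions. With equal numbers of peaks neither followed Runx1-het, and the former alone still followed Flt3-ITD in set 2.

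Irf4, a factor of type 2 conventional dendritic cells and of B cells, had no region that followed a mutation within a set in the full lists (0 of 18). Its promoter region (chromosome 13, 30748802 to 30750025) was present in all lists. There, −log10 p was 161.4 in set-1 wild type, 231.7 in Flt3-ITD, 258.4 in Runx1-het and 171.8 in Flt3-ITD/Runx1-het, and in set 2 324.0 in wild type, 202.3 in NUP98-HOXD13, 44.2 in Flt3-ITD and 190.6 in NUP98-HOXD13/Flt3-ITD. The strongest region, 37.2 kb beyond the start site, had 81.1 to 842.0. A region 15.3 kb inside the gene was present in the 3 mutants of set 1 (14.2 to 28.2) and in NUP98-HOXD13/Flt3-ITD (17.9) and absent from both wild types. With equal numbers of peaks Runx1-het lacked this region, which then followed Flt3-ITD in set 1. A region 1.5 kb inside the gene was present in all lists but NUP98-HOXD13 (6.04 to 27.7). With equal numbers of peaks it followed Runx1-het in set 1 and Flt3-ITD in set 2, present with the mutation each time.

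Of the 9 promoter windows matched (250 bases before to 50 after the start site), 6 lay wholly inside an open region, those of Ccr9, Siglech, Batf3, Id2, Irf4 and Itgax, and those of Zbtb46, Spib and Clec9a held none, against 51.2% of all windows with a region. The nearest regions present in all lists had midpoints 2.5 kb before the start site at Spib, 1.4 kb before it at Clec9a and 13.2 kb beyond it at Zbtb46, whose start site in the table lies inside the gene span. Zbtb46 is on the minus strand, and the upper end of its span had no promoter window. The region next to that end, described above, was absent from set-2 Flt3-ITD alone. Searched on both strands of the windows, the E-box letters CAGNTG, which E proteins such as the product of Tcf4 can bind, were found in 7 of the 9 members and in 51.4% of all windows. At Ccr9 they were the only match, as CAGGTG 85 bases before the start site. TGTGGT, the RUNX letters, was found at Siglech and Itgax (16.8% of all windows), TTCNNNGAA, the STAT letters, at Siglech and Batf3 (8.29%), and TGANTCA, the AP-1 letters, at Zbtb46 and Itgax (7.81%). GAGGAAG, the letters of PU.1-type ETS factors, was found at Batf3 (13.6%). At Siglech the STAT and RUNX letters overlap in the sequence above and form 1 run of capitals, and the RUNX letters of Itgax lie after its start site. The ETS-IRF composite motif and the core of the interferon-stimulated response element were found at 0 members (2.72% and 3.43% of all windows). A match describes letters and not binding.

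Other dendritic cell genes, 48 genes in 5 lists by cell type and role, had 746 regions in windows of the same width, 13 of them shared with the member windows. Of these, 291 (39.0%) were present in all 8 lists. Flt3-ITD in set 1 had 21 gained (2.82%) and 14 lost (1.88%) within the set, and in set 2 3 gained (0.402%) and 25 lost (3.35%). These shares lay beside 2.79%, 1.78%, 0.452% and 4.5% of all union regions. The share lost with Flt3-ITD in set 1 was thus 3.55% at the 10 members and 1.88% at the other 48 genes. The sole gene of the 48 with a region that divided all Flt3-ITD lists from the others was Cadm1, an adhesion molecule of type 1 conventional dendritic cells, in both directions. A region inside it (chromosome 9, 47587667 to 47588201) was present in both wild types, Runx1-het and NUP98-HOXD13 with −log10 p from 14.13 to 31.59. Another (chromosome 9, 47626755 to 47627400) was present in the 4 Flt3-ITD lists with 9.66 to 16.87. Each was a single region of the 746, and such regions made up 0.192% and 0.0582% of all union regions. With equal numbers of peaks neither division was kept. The former had 14.13 in set-1 wild type, where the lowest −log10 p kept was 15.03. The latter had 16.87 in set-1 Flt3-ITD and 15.65 in Flt3-ITD/Runx1-het, where the lowest kept were 20.1 and 19.29.

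The labelled cell type was checked by regions touching the spans of marker genes. Of 10 progenitor markers, 8 or 9 had a region in each list, and Ly6a had none. Markers of other cells had regions too, 3 to 6 of 8 for B cells, 2 to 4 of 6 for T cells, 1 or 2 of 3 for NK cells, 3 to 7 of 8 for neutrophils, 3 or 4 of 5 for erythroid cells, and all of 5 for monocytes and of 4 for megakaryocytes. An open region does not show expression, so these counts do not measure other cells in the samples. In bulk samples, fewer cells with an open region and less opening per cell cannot be told apart.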

How the data were processed

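Bulk ATAC-seq of mouse haematopoietic progenitors was used, 16 samples in 8 groups. The authors deposited 1 peak list per group, which per the labels both samples name beside a track described as pooled. The submitters' processing notes name Bowtie2, MACS2 and the builds mm10 and GRCm38. Neither versions nor thresholds, shifting of reads or treatment of duplicates were found in the sources used here. The deposited columns hold, per peak, a fold enrichment (a ratio to background), a p-value and a q-value, each as −log10, and a score of unstated meaning, which was not used. Values describe a peak within its own list.

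The autosomes, X and Y were kept, and peaks were merged into union regions (Python 3.11.15, pandas 2.3.3, Wilson intervals from statsmodels 0.14.6), and the counting was tested on simulated lists. Gene spans and promoter windows came from RefSeq GRCm38.p6. Depth was unknown, so intervals cover the number of regions only. With 1 list per group no p-value was computed.

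All 10 members are named. Regions named were the strongest per gene, those at the promoter, those that follow a mutation within a set and strong changes. Others, such as regions absent from all set-2 mutants, were chosen after their values were seen. Members and gene lists were chosen with earlier results of these data known. Alternatives were flanks of 0, 10 and 100 kb, equal numbers of peaks (84080 per list), −log10 q of at least 5, and a 50% overlap, and for strong peaks the top 10% or a ranking by fold enrichment.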

Additional observations from a re-analysis of the deposited data

How the results depend on the processing

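No paired analysis was possible because each group had 1 pooled list, and for the same reason no sample could be left out. Shares of member regions were recomputed under 6 alternatives and strong changes under 3, in all 204 values for 40 results, of which 187 stayed within the 95% Wilson interval of the share reported or within 1.5 times the count. With equal numbers of peaks, the share gained was 8.15% in Runx1-het (9.69% of all union regions), 6.67% in set-2 Flt3-ITD (7.54%) and 5.19% in set-2 against set-1 wild type (11.0%). The share lost was 9.63% in NUP98-HOXD13 (11.7%), 23.7% in set-2 Flt3-ITD (18.8%), 10.4% between the wild types (8.27%) and 1.48% for Flt3-ITD within set 2 (2.75%). Shortening removes the weaker peaks of the longer lists only. With no flank or a flank of 10 kb, the shares gained with Flt3-ITD and with Runx1-het within set 1 were 0%, since the regions concerned lie farther from the genes. With strong peaks taken as the top 25% by fold enrichment, strong gains were 2 in set-1 Flt3-ITD and 1 in Flt3-ITD/Runx1-het, and strong losses were 1 in NUP98-HOXD13 and 5 in set-2 Flt3-ITD. Those of Flt3-ITD in set 2 were 0 with the top 10% by −log10 p and 0 with equal numbers of peaks. No share over all union regions is given for these alternative counts, so they are not read as particular to the members. The stricter q limit, the 50% overlap and the 100 kb flank moved none of the shares beyond its interval (0 of 28 each).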

Other observations

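Among the other dendritic cell genes, regions gained with NUP98-HOXD13 within set 2 were looked at after their counts were seen. They made up 27 of 746 regions (3.62%) over all 48 genes, against 2.8% of all union regions and 1.78% of the member regions. By list they were 9 of 150 regions (6%) at 6 of 10 genes of type 1 conventional dendritic cells, and 7 of 128 (5.47%) at 3 of 10 genes of type 2. The windows of plasmacytoid genes had 6 of 234 (2.56%), those of antigen presentation and migration genes 5 of 182 (2.75%) and those of progenitor receptor genes 0 of 53 (0%). At Naaa, a lysosomal amidase gene, 2 regions were present in both NUP98-HOXD13 lists only, with −log10 p of 7.5 and 8.9 inside the gene (chromosome 5, 92260537 to 92261232) and 13.5 and 13.8 beside it. Wdfy4, required for cross-presentation by type 1 cells, also had 2 such regions (7.2 and 6.2, 12.7 and 17.2), and Cd209a, a lectin gene, 1 inside its span (25.5 and 13.0). Cadm1 (15.1 and 12.3), Runx2 (7.7 and 13.0), Ciita (6.4 and 13.0) and Ccl17 (13.1 and 9.5) had 1 each. At Notch2, a receptor needed by type 2 cells, 3 regions were gained, each also present in set-1 wild type. These were weak peaks, and no test was made. With equal numbers of peaks the lowest −log10 p kept was 13.71 in NUP98-HOXD13 and 15.21 with both mutations. Each region named above as present in these lists only fell below the limit of 1 list or of both.

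Flt3-ITD against wild type moved 4 member regions (2.37%, against 5.19% of all union regions) in opposite directions in the 2 sets, gained in set 1 and lost in set 2, at Tcf4, Batf3 and Id2. It moved 0 in the reverse order (0%, against 0.282%), and 7 (4.14%, against 3.24%) were lost in both sets. The difference was not tested.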
